A study of Mus musculus with 26 samples.

Results

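Total RNA of the striatum was compared between mice that lack LRRK2 (LRRK2 KO) and wild-type (WT) mice, transcript by transcript. All 9561 transcripts of the deposited LRRK2 KO table, under 9535 gene symbols, were taken, and the change of each is log2 of the LRRK2 KO mean over the WT mean of RNA-Seq. These means rest on 4 of the 26 samples of the series, 2 RNA-Seq libraries of WT and 2 of LRRK2 KO striatum. Only the mean of each group was deposited, so the change of a transcript carries no error of its own.

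Both groups were C57BL/6 mice, labelled 3 months old, and the study's methods give 3 to 4 months. The LRRK2 KO mice carry a knockout of the endogenous gene. The methods describe tissue of the caudate putamen pooled from 3 mice of mixed sex, so a library stands for a pool and not for an animal. RNA-Seq here counts fragments of total RNA after removal of rRNA, within the coding sequence (CDS) of a gene. LRRK2 is a large protein with a kinase and a GTPase domain, and mutations in it cause familial Parkinson's disease. It phosphorylates a set of Rab GTPases that steer vesicle traffic to and from lysosomes, and in the striatum it is made by the spiny projection neurons. Striatal identity was plain in the values: Ppp1r1b, the dopamine-regulated phosphatase inhibitor of spiny projection neurons, stood at 12845 and 15860 normalized reads in the WT libraries and at 13826 and 19472 in the LRRK2 KO libraries. Markers of cortical projection neurons were present too, with Slc17a7, a vesicular glutamate transporter, between 1420.1 and 3493 normalized reads.

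Reads per library were worked back out of the group means, since a mean of 2 libraries is a sum of whole reads in steps of 2 sizes. The deeper WT library held 7478198 reads in the CDS and the shallower 3131554, and the deeper LRRK2 KO library held 10708477 and the shallower 4489707. Both genotypes share the difference between their libraries: the log2 ratio of shallower to deeper library had an SD of 0.69 over 9551 transcripts in WT and 0.64 in LRRK2 KO, and the ratios of WT and LRRK2 KO followed each other (Spearman rho = 0.69 across 9551 transcripts, which are not independent replicates). Y-linked genes were split in the same way. The 3 that are listed, Ddx3y, Kdm5d and Uty, had 936 reads in the deeper WT library and 1623 in the deeper LRRK2 KO library. The shallower libraries had 14 and 1, respectively. A library of the shallower kind therefore held almost no Y-linked RNA in either genotype, although the pools are described as of mixed sex. Changes are given below for the group means and also for deeper against deeper and shallower against shallower library. The part that sex, depth or another property of the libraries has in the changes was not tested.

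The deleted gene was checked first. Lrrk2 (chromosome 15, 91503606 to 91646551 in mm9, plus strand) stood at 1278 and 733 normalized reads in the deeper and shallower WT libraries, and at 423 and 270.02 in the LRRK2 KO libraries. Both LRRK2 KO libraries lay below both WT libraries. The LRRK2 KO mean was 34.5% of the WT mean, a log2 change of -1.54, and the change was -1.57 in the deeper pair and -1.41 in the shallower pair. Ribosome footprints on Lrrk2, from other libraries described as made from the same pooled lysates, went from a WT mean of 545 to an LRRK2 KO mean of 126, a log2 change of -2.12. Lrrk2 RNA was thus lower but not absent, with 814 and 204 reads left in the LRRK2 KO libraries. The table holds 1 value over the whole CDS, so reads from a deleted part and from the rest of the gene cannot be told apart. Lrrk1, the closest relative of Lrrk2, is not listed in the table.

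**Figure D1:**
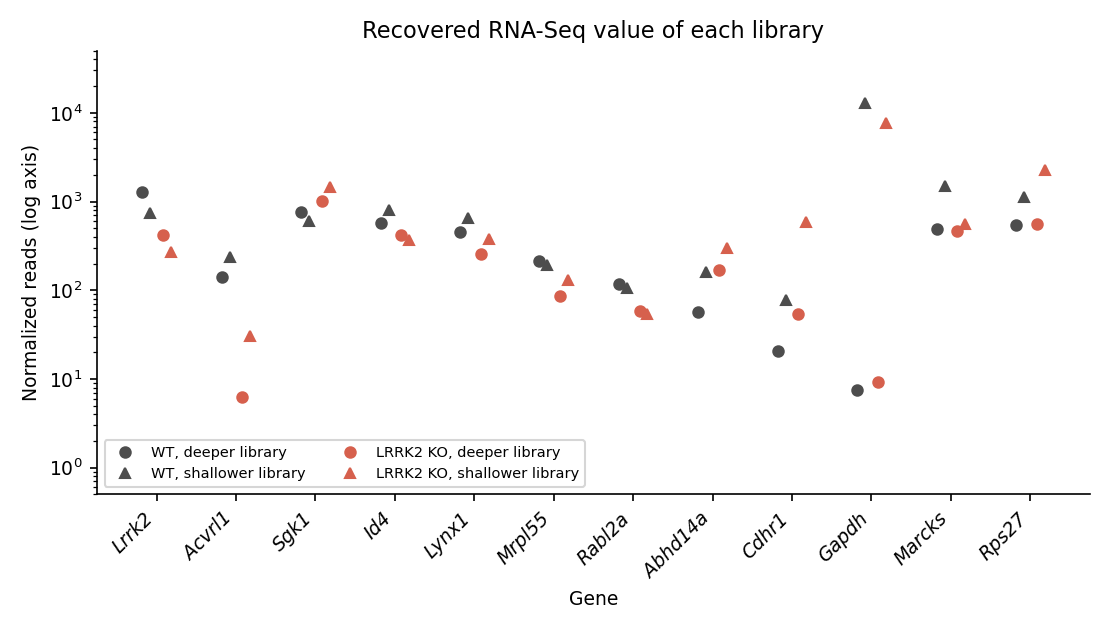
Normalized reads of 12 genes in each of the 4 recovered RNA-Seq libraries, on a log axis. Grey marks are WT and red marks LRRK2 KO libraries, circles the deeper and triangles the shallower library of a group. Both red marks lie below both grey marks for Lrrk2, Acvrl1 and Rabl2a and above them for Sgk1 and Abhd14a, while for Gapdh, Marcks and Rps27 the marks differ more by library than by genotype.

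Around the deleted gene, the table lists 10 other transcripts within 2 Mb on chromosome 15. Their median log2 change was -0.27, 9 of 10 were below 0, and the libraries of 4 did not overlap between the genotypes, each lower in LRRK2 KO, beside 670 of 9551 over all transcripts. None of these 4 reached a change of -0.5. Slc2a13, a myo-inositol transporter gene that starts at 91098122, had the lowest value, at -0.79. Its libraries overlapped, with 249.6 and 845 normalized reads in WT and 180.4 and 454 in LRRK2 KO. Abcd2, a peroxisomal fatty acid transporter gene, stood at 215 and 218 in WT and at 180.4 and 168 in LRRK2 KO, a change of -0.31 with no overlap. Cntn1, which encodes a neuronal adhesion molecule on the far side of Lrrk2, had a change of -0.31 as well, with overlapping libraries. Zcrb1 was the exception with a change of 0.19.

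Over the whole table the changes were small. Their median was 0.01 and their SD 0.24, and 96.8% of the transcripts stayed within 0.5 of 0 on the log2 scale. A change of at least 0.5 was seen for 64 transcripts (0.669%), and a change of at most -0.5 for 240 (2.51%). Among 484 transcripts with a mean of under 64 normalized reads, 10 were past 0.5 and 46 past -0.5. Of the 9551 transcripts resolved in both groups, 40 (0.419%) were higher in LRRK2 KO by at least 0.5 with no overlap between the libraries, and 75 (0.785%) were lower by as much with no overlap. No transcript (0%) passed an adjusted p of 0.05 in limma with 2 libraries a group (smallest adjusted p = 1.00, Benjamini-Hochberg), and 7 transcripts had an unadjusted p under 0.05. Among these 7 were Acvrl1, Lrrk2, Rabl2a, Mrpl55, Sgk1 and Id4. A fit with deeper and shallower libraries as pairs called 9 transcripts, 4 higher and 5 lower, but 2 pairs do not establish pairing. With pools as replicates, p-values measure the spread between these libraries, which may in part be technical.

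**Figure D2:**
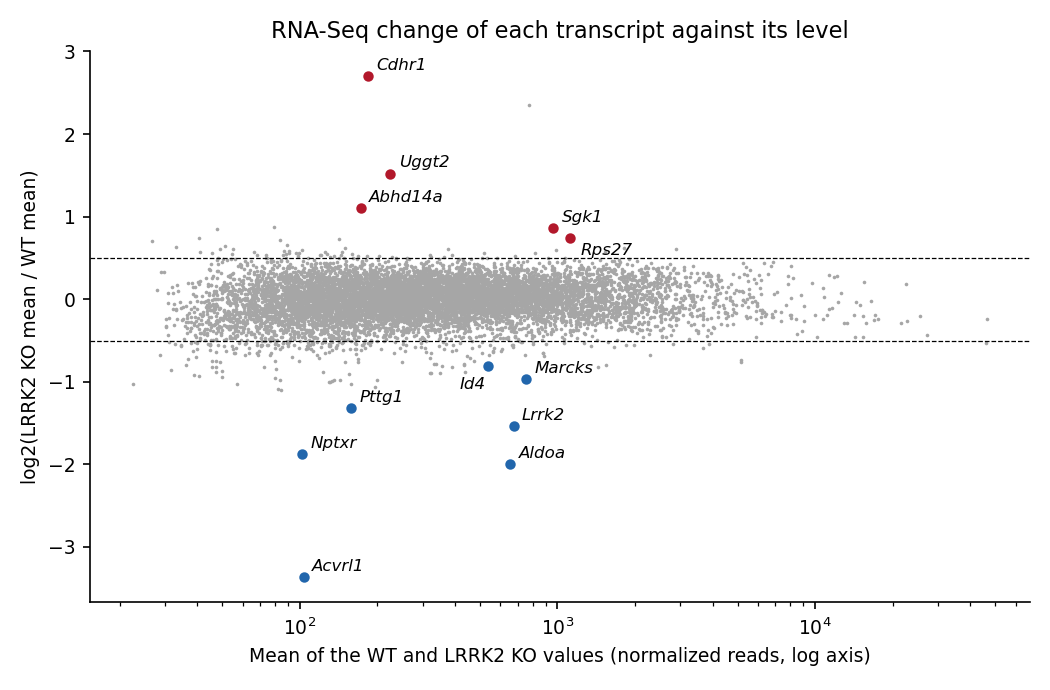
Log2 of the LRRK2 KO mean over the WT mean for each of 9561 transcripts, against the mean of both groups in normalized reads on a log axis. Dashed lines mark changes of 0.5 and -0.5, red and blue points are named genes above and below 0. Lrrk2, at -1.54, lies among the few transcripts far from the cloud, with Acvrl1 at -3.37 and Cdhr1 at 2.71.

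The changes of most transcripts came from 1 pair of libraries. In the deeper pair, with a pseudocount of 10, the SD of the changes was 0.18, and 48 transcripts were higher by at least 0.5 and 73 lower. In the shallower pair the SD was 0.40, and 984 were higher and 948 lower. Across 9551 transcripts the changes in the deeper and the shallower pair were unrelated (Spearman rho = -0.05), and the change of the group means followed the shallower pair (rho = 0.89) more closely than the deeper (rho = 0.34). Of 239 resolved transcripts with a change of at most -0.5, 225 were past -0.5 in the shallower pair and 24 in the deeper pair. Of 64 with a change of at least 0.5, 55 were past it in the shallower pair and 12 in the deeper pair. Past 0.5 in the same direction in both pairs were 5 transcripts higher in LRRK2 KO (0.0524%) and 11 lower (0.115%). These 16, and other genes named below outside the rule set beforehand, were picked out after the values had been seen, and 14 of the 16 had a footprint change of the same sign.

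**Figure D3:**
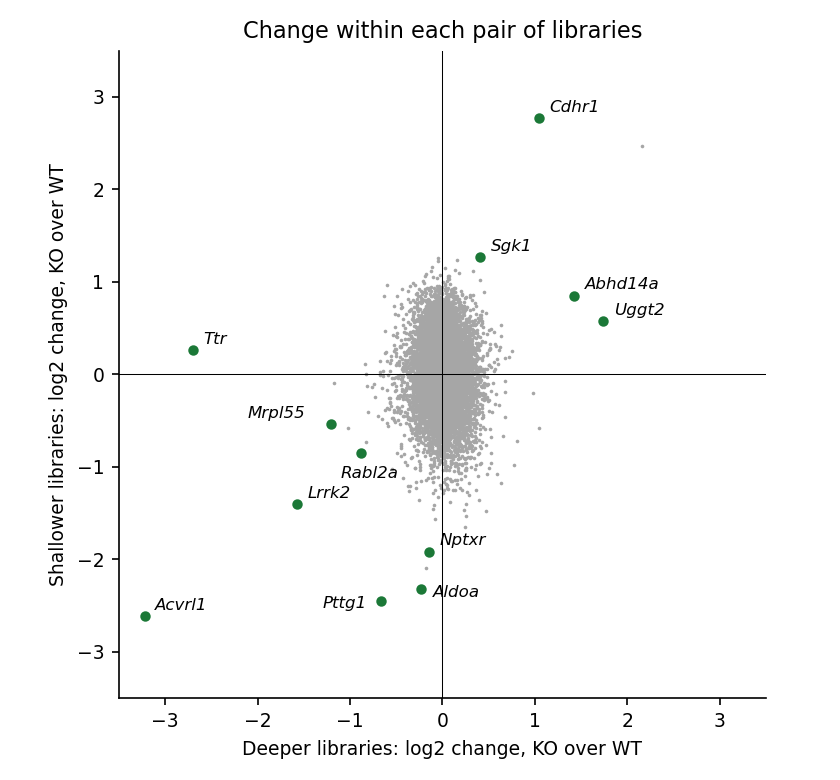
Log2 change of each transcript in the shallower pair of libraries against its change in the deeper pair, with a pseudocount of 10; each grey point is 1 of 9551 transcripts and green points are named genes. The cloud is taller than it is wide, with an SD of 0.40 in the shallower and 0.18 in the deeper pair. Lrrk2, Acvrl1 and Rabl2a lie near the diagonal, while Aldoa and Nptxr are low in the shallower pair and Ttr in the deeper pair.

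Among the transcripts higher in both pairs, the libraries did not overlap in some and overlapped in others. Abhd14a, which encodes a predicted hydrolase, stood at 56.8 and 162 in WT and at 169 and 300.5 in LRRK2 KO, a change of 1.10 with no overlap. Cdhr1, a cadherin gene best known from photoreceptors, had 20.9 and 77.2 normalized reads in WT and 53.5 and 586 in LRRK2 KO. Its change of 2.71 rests mostly on the shallower LRRK2 KO library, and the libraries overlapped. Uggt2, which encodes a glucosyltransferase of glycoprotein folding, had 158 and 73.3 in WT and 552 and 114 in LRRK2 KO; its change of 1.52 rests mostly on the deeper LRRK2 KO library. Krt12, a keratin gene, had a change of 0.63 with no overlap. Footprint changes of Abhd14a, Cdhr1 and Krt12 were 0.87, 2.35 and 0.51, and the footprint mean of Uggt2 was 22.1 in WT and 45.03 in LRRK2 KO.

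The transcripts lower in both pairs were led by Acvrl1, which encodes the endothelial TGF-beta family receptor ALK1. It stood at 141 and 237 normalized reads in WT and at 6.24 and 30.4 in LRRK2 KO, with 12 and 23 reads left. The change was -3.37 for RNA and -4.88 for footprints, lower than that of Lrrk2 in both assays. Rabl2a, a small GTPase gene, was at 117 and 106 in WT and at 58.7 and 54.3 in LRRK2 KO, a change of -0.98. Mrpl55, a subunit gene of the mitochondrial ribosome, was at 212 and 195 in WT and at 85.8 and 131 in LRRK2 KO, a change of -0.91. Lynx1, which encodes a modulator of nicotinic acetylcholine receptors, was at 458 and 645 in WT and at 254 and 383 in LRRK2 KO, a change of -0.79. In these 4 genes both LRRK2 KO libraries lay below both WT libraries. Pttg1, which encodes securin, was at 246 and 205 in WT and at 152 and 29.1 in LRRK2 KO, also with no overlap. Zfp39, at -0.66, completed the genes with no overlap, whereas Ptgds, Nov, Timp3 and Pigk were lower in each pair with libraries that overlapped.

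Position was shared by several of these genes. Of the 16 transcripts past 0.5 in both pairs, 5 lie on chromosome 15 (Lrrk2, Acvrl1, Rabl2a, Lynx1 and Nov), all lower in LRRK2 KO. On chromosome 15, 7 of 381 transcripts (1.84%) were lower with no overlap, beside 0.785% over all transcripts. Chromosomes 19 (6 of 337, 1.78%) and 12 (5 of 358, 1.40%) had shares above 0.785% as well. So did chromosomes 18 (1.18%), 9 (1.16%), 16 (1.00%), 14 (0.92%), 2 (0.91%) and 5 (0.82%). In mm9, Rabl2a starts at 89412964 and Acvrl1 at 100958953, on either side of Lrrk2 but outside the 2 Mb on each side of it. Cdhr1 and Uggt2 are both on chromosome 14, far apart at 37891036 and 119384261.

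Among transcripts with both means at least 500, Sgk1 had the highest change. Sgk1 encodes a kinase induced by glucocorticoids and serum. It stood at 769 and 600.1 normalized reads in WT and at 1025 and 1456 in LRRK2 KO, with no overlap. Its change was 0.86 for RNA, 0.41 in the deeper and 1.26 in the shallower pair, and 1.10 for footprints. Ribosomal protein transcripts came next. Rps27 was at 543 and 1135 in WT and at 552 and 2250.1 in LRRK2 KO, a change of 0.74 that rests on the shallower LRRK2 KO library, and Rps21 (0.62), Rpl13a-ps1 (0.61) and Rps27a (0.57) were alike in this. Rpl13a-ps1 and Rps27a have near-identical copies in the genome, so their reads are uncertain. Lrrc10b, at 0.60, ranked between Rpl13a-ps1 and Rps27a, and Krt9, B3gat3, Kcnk2 and Eml5 followed with changes between 0.50 and 0.56. Of these, Eml5 was higher by about as much in both pairs (0.50 and 0.48), but its values of 1416 and 361 in WT and 2004 and 506 in LRRK2 KO overlapped.

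At the low end of these abundant transcripts, the shallower WT library stood apart. Marcks, which encodes an actin-binding substrate of protein kinase C, was at 491 and 1505 normalized reads in WT and at 462 and 559.9 in LRRK2 KO. Its change of -0.97 was the lowest, but in the deeper pair the values hardly differed. Cltc (clathrin heavy chain, -0.73), Mef2c (a neuronal transcription factor, -0.69) and Slc1a2 (the main astrocyte glutamate transporter, -0.67) had the same form, each highest in the shallower WT library. Gapdh, at -0.76 for the transcript resolved in both groups, had 10 and 6728 reads in the deeper and shallower WT libraries and 18 and 5804 in those of LRRK2 KO. Gapdh and the aldolase gene Aldoart1 (-0.82) have near-identical copies in the genome, so their reads are uncertain, and so is an Aldoa transcript at -1.99 beside another at -0.19. Acta1, the skeletal muscle actin gene, was at 1058 and 2871 in WT and at 951 and 1318 in LRRK2 KO; actins share long stretches of sequence. Ptgds and the immediate early gene Arc (-0.66) were lower in each pair. Ncald, a neuronal calcium sensor gene, was the abundant transcript of this end with the clearest gap, at 836 and 1316 in WT and at 703 and 668 in LRRK2 KO.

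Ranked by the gap between the genotypes instead, transcripts with both means at least 300 gave a different set. Lrrk2 and Sgk1 led the low and the high end with gaps of -0.79 and 0.41 between the nearest libraries, on the log2 scale. Id4, which encodes an inhibitor of basic helix-loop-helix factors, followed at 569 and 805 normalized reads in WT and 419 and 364 in LRRK2 KO, a change of -0.81. Then came 3110035E14Rik, Lynx1, Ncald, Cat, Bbs4, Arl2, Atox1 and H1f0. Cat encodes catalase, and its libraries stood at 407 and 434 in WT and at 352 and 318 in LRRK2 KO, a change of -0.33. On the high end Smarce1, a subunit gene of the BAF chromatin remodelling complex, stood at 379.7 and 382 in WT and at 492 and 487 in LRRK2 KO. Its change of 0.36 was alike in both pairs (0.36 and 0.34), and its footprint change was 0.25. Slc4a4, the sodium bicarbonate cotransporter gene of astrocytes, had a change of 0.38, Sh3rf2 one of 0.32 and the clock gene Per1 one of 0.44. The footprint changes of these 3 were 0.21, 0.31 and 0.41. The other genes of the high end, 9130401M01Rik, Rfwd2, Kctd17, Fam98b and 1110012J17Rik, had RNA changes of 0.38, 0.45, 0.36, 0.27 and 0.40. Their footprint changes were -0.21, 0.10, 0.09, -0.10 and 0.01. Non-overlap of any size was seen for 671 transcripts higher and 670 lower in LRRK2 KO.

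The partners of LRRK2 showed values near those of all transcripts in the deeper pair and lower values in the shallower pair. Of 11 listed Rab GTPases that LRRK2 phosphorylates, none was past 0.5, 2 were past -0.5, and 1 of these, Rab3d at -0.91, did so with no overlap, on 33.6 and 67.5 normalized reads in WT and 31.2 and 22.5 in LRRK2 KO. Over all transcripts, 2.51% were past -0.5, and 0.785% were so with no overlap. Their median was -0.17, beside 0.01 for all transcripts, with -0.03 in the deeper and -0.42 in the shallower pair. Rab10 had 564 and 772 in WT and 656 and 541 in LRRK2 KO, a change of -0.16 with overlap, and Rab12 and Rab8a were at 0.03 and 0.15. All 6 genes of the 14-3-3 proteins, which bind phosphorylated LRRK2, were below 0, with a median of -0.36 (-0.06 deeper, -0.56 shallower) and no separated member; Ywhag was lowest at -0.54. The 19 other Parkinson's disease genes had a median of -0.03 and none past 0.5 in either direction. Pla2g6, a phospholipase gene, was the highest of the list at 0.47, from 170.4 and 168 to 209 and 259; its libraries did not overlap, and its footprint change was 0.37.

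Genes of lysosomes and autophagy, which LRRK2 is tied to, stayed within the threshold. None of 31 lysosomal enzyme and membrane protein genes and none of 27 autophagy genes was past 0.5 in either direction, and their medians were -0.07 and -0.04. The lysosomal list had a median of -0.16 in the deeper and -0.06 in the shallower pair. Its most read gene, Psap, which encodes the precursor of the saposins, was at 3038 and 10495.5 in WT and at 2549.7 and 8557 in LRRK2 KO, a change of -0.29 with overlap and with nearly equal values in both pairs (-0.25 and -0.29). Scarb2, the receptor that carries glucocerebrosidase to lysosomes, was lowest at -0.40. Optn, an autophagy receptor gene, was at 103 and 98.4 in WT and at 73.8 and 82.1 in LRRK2 KO, a change of -0.37 with no overlap, and Becn1 was highest at 0.27. Of 17 V-ATPase subunit genes, which encode the lysosomal proton pump and its accessory proteins, 2 were past -0.5 (2.51% over all transcripts) and the median was -0.21. Atp6v1a, the lowest at -0.56, was at 1287 and 3452 in WT and at 1395 and 1821 in LRRK2 KO, so the deeper pair differed in the other direction.

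Cell type markers were read as lists. In pooled tissue, fewer cells of a type and less RNA per cell cannot be told apart. The 26 listed markers of spiny projection neurons had a median of 0.03, none past 0.5 in either direction, and their summed level was 87308 and 101995 normalized reads in WT and 89901 and 110157 in LRRK2 KO. Drd2, the dopamine receptor of the indirect pathway, was highest at 0.49, from 1763 and 1407 in WT to 1715 and 2728 in LRRK2 KO, a difference seen in the shallower pair alone. Pdyn, the opioid precursor of the direct pathway, was lowest at -0.30. The 8 interneuron markers had a median of 0.00, and Chat and Sst were at 0.07 and -0.14. All 10 markers of cortical projection neurons were below 0, with a median of -0.34 (-0.15 deeper, -0.53 shallower) and 4 past -0.5, beside 2.51% of all transcripts. Their sum was 3991 and 7227 in WT and 3459.9 and 5328 in LRRK2 KO. Slc17a7, their most read gene, was at 1899 and 3493 in WT and at 1420.1 and 3306 in LRRK2 KO, and Rorb, at 171 and 164 against 156 and 78.1, was the only marker of the list with no overlap past the threshold. The footprint median of these 10 markers was -0.002. Whether the cortical content of the dissections differed, and how far it takes part in other changes, was not tested.

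Glial and vascular markers differed between the lists. Microglial markers had the highest median of the cell type lists, 0.21 over 12 genes, of which 11 were above 0, with 0.03 in the deeper and 0.30 in the shallower pair. C1qb, a complement gene, was at 66.5 and 147 in WT and at 74.3 and 279 in LRRK2 KO, a change of 0.73, and C1qa was at 0.54. These 2 of 12 were past 0.5, beside 0.669% of all transcripts, and no microglial gene was separated between the genotypes. The footprint median of the microglial list was 0.08, and the footprint change of C1qb was 0.005. The 29 oligodendrocyte genes had a median of -0.10 and the 30 astrocyte genes one of 0.00, with Mal at -0.30, Trf at 0.43, Gfap at -0.23 and Gjb6 at 0.43. The 5 precursor markers had a median of -0.01 and all 7 vascular markers one of -0.12. Of the vascular genes, Myh11 and Tagln, both of smooth muscle, were lower with no overlap, at -0.72 and -0.54, as were 0.785% of all transcripts past -0.5. Myh11 rests on 58 and 25 reads in WT and 46 and 24 in LRRK2 KO. Its footprint change was 0.32, and the footprint median of the vascular list was -0.11. Among 3 choroid plexus and meningeal markers, Ttr, the transthyretin gene of choroid plexus, was at 282 and 143 in WT and at 34.8 and 173 in LRRK2 KO, a change of -1.03 that rests on the deeper LRRK2 KO library. Ptgds was at 359 and 1472 in WT and at 171 and 979 in LRRK2 KO. The 3 globin genes were lower in the shallower pair, with a median of -0.51 there, 0.03 in the deeper pair and -0.29 for the group means, and their footprint median was -0.64. The 1 muscle gene listed is Acta1, so the muscle list cannot speak for muscle as a whole.

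Neuronal activity and clock genes gave values in both directions. Of 23 immediate early genes, which follow neuronal activity within minutes, 19 were below 0 and 3 past -0.5 (2.51% over all transcripts), with a median of -0.12. Fos, the lowest at -0.98, was at 154 and 372 in WT and at 118 and 149.6 in LRRK2 KO, with no overlap. Npas4, at -0.51, was at 230.2 and 216 in WT and at 213 and 99.3 in LRRK2 KO, also with no overlap. Fosb and Nr4a3 were at 0.50 and 0.43 instead, with footprint changes of 0.53 and 1.02. The footprint changes of Fos, Arc and Npas4 were -0.50, -0.43 and -0.82, but the footprint median of the list was 0.03. Egr1, its most read gene, was at -0.04 for RNA and 0.34 for footprints. The 14 clock genes had a median of 0.08 and a footprint median of 0.20. Per1 was at 1179 and 1137 in WT and at 1406 and 1729.96 in LRRK2 KO, and Per2 at 245 and 195 in WT and at 397 and 222 in LRRK2 KO, a change of 0.49 with footprints at 0.61.

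The strongest shift of a large list was that of cytosolic ribosomal proteins, and it differed between the pairs. Of 72 transcripts, 70 were above 0 and 3 past 0.5 (0.669% over all transcripts), with a median of 0.26. The median was -0.07 in the deeper pair and 0.48 in the shallower, none of the list was both past the threshold and separated, and its footprint median was -0.01. Their summed level was 110348 and 127508 normalized reads in WT and 105154 and 180466 in LRRK2 KO, so the shallower LRRK2 KO library alone was high. Rps15, a ribosomal protein that LRRK2 phosphorylates, was at 2833 and 3352 in WT and at 2631 and 5052 in LRRK2 KO, a change of 0.31 with -0.11 in the deeper pair. Mitochondrial ribosomal proteins (63 transcripts, median -0.01) and the nuclear-encoded subunits of oxidative phosphorylation (75, median -0.04) had 1 member past the threshold between them, Mrpl55. The 49 initiation factor transcripts had a median of 0.05 and none past 0.5 in either direction. Eif2b3, a subunit gene of the eIF2 exchange factor, was highest at 0.35.

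Genes of protein quality control and metabolism mostly lay slightly below 0. The medians were -0.08 for 30 proteasome subunits, -0.12 for 21 endoplasmic reticulum chaperones, -0.11 for 18 cytosolic heat shock proteins and -0.10 for 17 genes of the integrated stress response, with no member of these 4 lists past 0.5 in either direction. Heat shock genes had opposite medians in the pairs, 0.12 in the deeper and -0.39 in the shallower, as in Hspa8, at 12581 and 25315.5 in WT and 14307 and 17779 in LRRK2 KO. Atf4, the transcription factor of the stress response, was at 869 and 380.1 in WT and at 812 and 735 in LRRK2 KO. Its RNA change was 0.31, with -0.10 in the deeper and 0.93 in the shallower pair, and its footprint change was -0.46. Of 19 glycolytic transcripts, 18 were below 0 (median -0.22). The 220 zinc finger genes of the Zfp series had a median of 0.04, with Zfp189 highest at 0.72, from 77.7 and 48.2 in WT to 109.7 and 97.9 in LRRK2 KO.

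Membrane proteins of neurons differed by family. GABA-A receptor subunits had a median of -0.35 over 11 genes and 4 past -0.5, among them Gabrb2 and Gabra2, beside 2.51% of all transcripts past -0.5. Gabrb2 was at 230.2 and 764 in WT and at 215 and 349 in LRRK2 KO. The median of the family was 0.02 in the deeper and -0.59 in the shallower pair, and the footprint median was 0.13. Gabra4 and Gabrd, subunits that spiny projection neurons use for tonic inhibition, were at 0.22 and 0.07. The 15 subunits of voltage-gated calcium channels had a median of 0.14, with Cacna1i highest at 0.44 and Cacna2d1 alone past -0.5, at -0.88 from 244 and 886 to 242 and 373. Ionotropic glutamate receptors (12 subunits and relatives) had a median of 0.08, and Grin1 was at -0.16. The 32 genes of synaptic vesicles and release had a median of -0.19 (-0.03 deeper, -0.31 shallower) and a footprint median of 0.01. Sv2b was lowest at -0.54, and Snap25, Syt1 and Syp were between -0.46 and -0.44. No member of these 4 lists was past 0.5 in size with separated libraries.

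**Figure D4:**
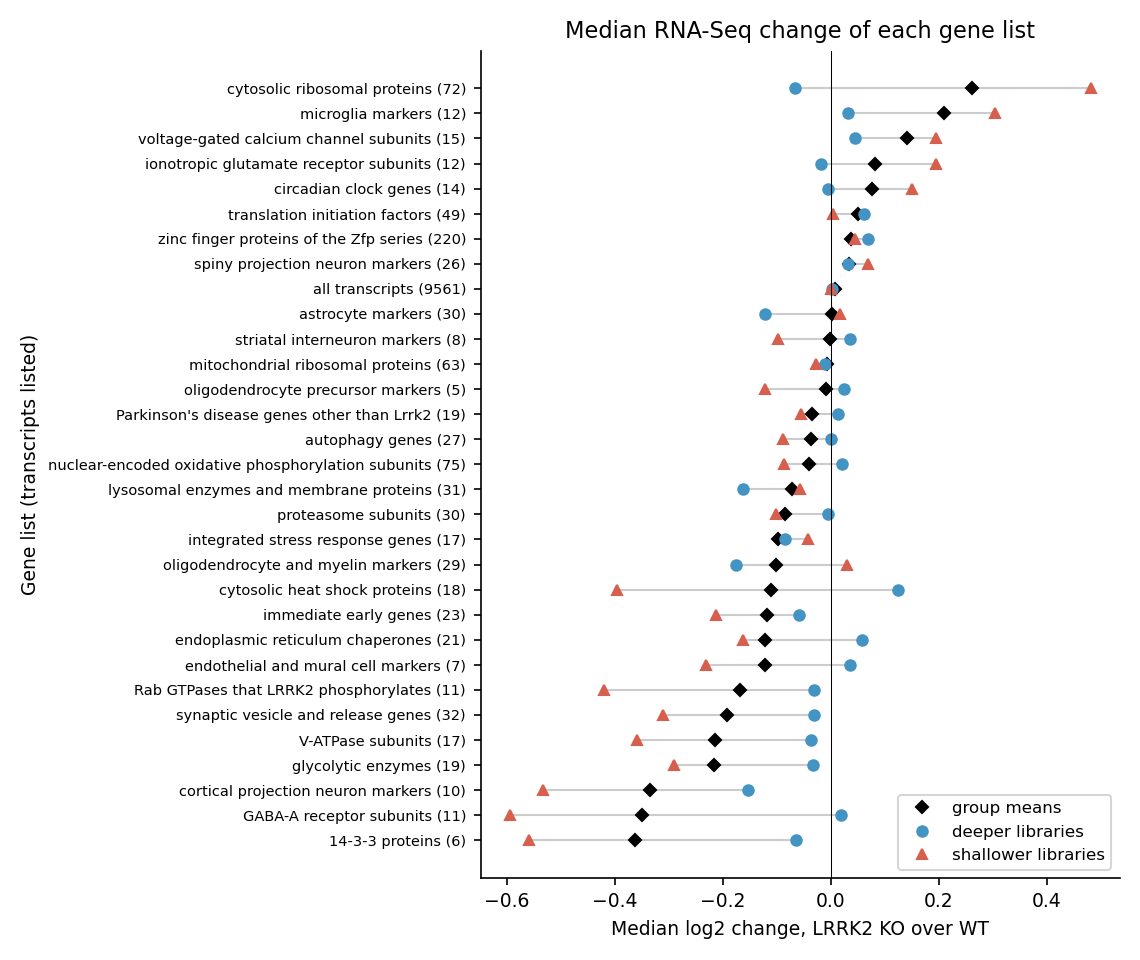
Median log2 change of each gene list with at least 5 listed transcripts, for the group means (black diamonds), the deeper libraries (blue circles) and the shallower libraries (red triangles); the number of transcripts stands in brackets. The red triangles spread from -0.59 for GABA-A receptor subunits to 0.48 for cytosolic ribosomal proteins, while the blue circles stay between -0.17 and 0.12.

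Sequence properties were related to the changes only weakly, and GC content in opposite directions in the pairs. Longer coding sequences had higher changes (Spearman rho = 0.19 across 9395 transcripts), with medians of -0.06 in the shortest 1877 and 0.08 in the longest 1877, and the sign was the same in the deeper (0.23) and the shallower pair (0.11). For the GC content of the CDS, rho was 0.12 for the group means, -0.22 in the deeper pair and 0.23 in the shallower. The most structured 5′UTRs by deposited folding energy had a median change of 0.08 and the least structured one of -0.04 (rho = -0.16 across 9561 transcripts). With the mean level, rho was 0.11, but it was 0.0478 in the deeper pair and -0.0260 among the 5017 transcripts with the higher means. X-linked transcripts had a median of -0.10 over 332, with 0.03 in the deeper and -0.23 in the shallower pair, beside 0.01 for all mapped transcripts.

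Footprints of the same table come from separate libraries, but the methods describe each pooled lysate as divided between footprinting and RNA-Seq. A change seen in both assays is therefore not one seen in other animals. Across 9561 transcripts the RNA-Seq change and the footprinting change were weakly related (Spearman rho = 0.13), with 0.20 for the deeper and 0.05 for the shallower pair. Past 0.5 in both assays were 10 transcripts higher and 21 lower in LRRK2 KO. The 10 include Cdhr1, Uggt2, Abhd14a, Sgk1, Zfp189 and Krt12, and the 21 include Lrrk2, Acvrl1, Pttg1, Rabl2a, Mrpl55, Nptxr, Ptgds, Slc30a3 and Npas4. Nts, the neurotensin gene, was among the 10, at 23.2 and 28.9 in WT and 34.3 and 46.3 in LRRK2 KO for RNA, with changes of 0.63 and 0.75. Nptxr, which encodes the neuronal pentraxin receptor, was at 17.2 and 303 in WT and at 14.6 and 72.8 in LRRK2 KO, and its changes were -1.87 for RNA and -0.95 for footprints. Of the 40 transcripts that were higher and separated, 8 had a footprint change of at least 0.5, and of the 75 lower ones 12 had one of at most -0.5, beside 96 and 102 of all 9561. The footprint medians of the 40 and the 75 were 0.13 and -0.09, beside 0.02 for all transcripts.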

How the data were processed

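The authors called bases with CASAVA 1.8, aligned reads to mm9 with TopHat2 2.0.11 and Bowtie2 2.2.2, counted them within the CDS and deposited group means scaled by DESeq 1.20, a signal without an SD, beside the authors' 5′UTR folding energy, a score. Translational efficiency, its difference and the z score are the authors' own comparisons and were not used. The members and lists were chosen with earlier results of these data known.

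Changes are log2(LRRK2 KO mean / WT mean) with a pseudocount of 0. Each mean was decomposed into whole reads of 2 libraries, and transcripts with exactly 1 solution were kept (99.9% in each group). After an arbitrary shift of all means, 0.115% of the WT and 0.209% of the LRRK2 KO values had exactly 1 solution. The recovered libraries carry no replicate number and were named by depth. limma 3.58.1 (robust, no block, R 4.3.3) was fitted to log2(normalized reads + 10), with a Benjamini-Hochberg adjusted p threshold of 0.05 over 9551 transcripts. Both methods were tested on simulated data. Recovery resolved 99.7% of transcripts for 2 libraries with depths of 2.5 to 1, and 0% for nearly equal depths or for 3 libraries. The simulation for limma without a block gave the libraries of a genotype no difference beyond sampling spread. The recovered libraries do differ, so that simulation does not show how the fit performs on them. Libraries do not overlap (are separated) where both LRRK2 KO libraries lie above or below both WT libraries; counts in background shares also need a change of 0.5 in size.

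The genes named were taken from Lrrk2 and those within 2 Mb, the 10 highest and lowest changes with both means at least 500, the 10 widest gaps in each direction with both means at least 300, the extremes and most read gene of each of 36 lists, Rps15 and Atf4, and not every list extreme is printed. Genes named after their values were seen are Acvrl1, Cdhr1, Uggt2, Abhd14a, Rabl2a, Pttg1, Krt12, Nov, Timp3, Pigk, Nptxr, Rasl2-9-ps, Ctgf, Kcnj6, Slc8a1 and Tubb6, the list members Ddx3y, Rab10, Rab12, Chat, Rorb, C1qa, Mal, Gfap, Tagln, Npas4, Nr4a3, Gabra2, Syt1, Syp and Slc30a3, and Nts. Gene positions and the length and GC share of each CDS are from the GENCODE annotation of NCBIM37 (mm9), matched by symbol for 98.3% of transcripts. Tables and figures were made with Python 3.11.15, numpy 2.4.6, pandas 2.3.3 and matplotlib 3.10.9.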

Additional observations from a re-analysis of the deposited data

How the results depend on the processing

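With 1 library left out, the changes of at least 0.5 came to 596 to 1564 transcripts and those of at most -0.5 to 236 to 1246, the SD to 0.32 to 0.51 and the change of Lrrk2 to -1.90 to -1.08. limma called 0 transcripts each time, with the spread taken from the group that kept 2 libraries. With the shallower libraries alone, 1089 transcripts were higher and 1070 lower by 0.5 (SD 0.43), and with the deeper alone 110 were lower. A pseudocount of 10 left 38 higher. With a minimum on both means that kept 5017 transcripts (the lower minimum), 16 were higher and 61 lower, and with a minimum of 2 times that, 9 and 29. Without overlap, 345 higher and 354 lower passed a threshold of 0.25, 2 and 4 a threshold of 1, and 8 and 15 the 0.5 with the lower minimum. Spearman rho with mean level was 0.0478 in the deeper pair and -0.0260 with the lower minimum, rho with GC content -0.22 in the deeper pair, and rho with folding energy -0.0922 in the deeper pair and -0.21 with the lower minimum.

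With a replicate block of deeper and shallower libraries as pairs, limma called 9 transcripts instead of 0, among them Abhd14a, Acvrl1, Cdhr1, Lrrk2, Nptxr, Pttg1, Rasl2-9-ps and Uggt2; with only 2 pairs the numbers do not establish pairing, and the table gives the recovered libraries no replicate number. In the deeper pair the sign was the other way for Rps21 (-0.0573), Lrrc10b (-0.0520), Gapdh (0.32), Cltc (0.0205), Mef2c (0.13), Slc1a2 (0.0217), Atp6v1a (0.12), Kcnj6 (0.0121) and Tubb6 (0.55), and in the shallower pair for Ttr (0.28) and the choroid plexus list (0.28). For genes and lists with a change of at least 0.5 in size, leave-one-out ranges that crossed 0 were -1.60 to 0.35 for Slc2a13, -0.60 to 1.42 for Rps27, -0.63 to 1.27 for Rps21, -0.013 to 0.99 for Rps27a, -1.56 to 0.0567 for Marcks, -1.34 to 0.10 for Acta1, -9.44 to 9.01 for Gapdh, -1.18 to 0.0483 for Mef2c, -2.42 to 0.68 for Ptgds, -0.95 to 0.0237 for Ywhag, -1.10 to 0.32 for Atp6v1a, -1.35 to 0.084 for Tbr1, -0.52 to 1.41 for C1qb, -2.87 to 0.57 for Aldoa, -1.53 to 0.33 for Cacna2d1, -1.51 to 0.69 for Sv2b, -1.44 to 0.29 for Gabrb2, -2.29 to 0.63 for Nov, -1.29 to 0.18 for Pigk, -0.0259 to 2.25 for Uggt2, -3.46 to 1.35 for Nptxr, -1.80 to 0.33 for Ctgf, -1.72 to 0.33 for Kcnj6, -1.70 to 0.0971 for Slc8a1, -1.78 to 0.80 for Tubb6, -2.42 to 0.29 for the list of choroid plexus, ependymal and meningeal markers and -1.34 to 0.10 for the list of skeletal muscle genes. Of 56 named genes with a change of 0.5 or more in size, 36 had the same sign without the shallower WT library and 47 in the deeper pair. Every leave-one-out setting sets the remaining library of a genotype against both libraries of the other. The difference between deeper and shallower libraries, which both genotypes share, therefore enters these changes, and the ranges do not measure the spread of the genotype change alone. Ranges of genes with smaller changes, such as Eml5 and Cntn1, crossed 0 too and are not listed. The cause was not tested.

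A filter chosen after seeing the data left out transcripts with under 20 reads in any library. It gave 55 higher and 223 lower, and 34 and 68 without overlap.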
